A study of Mus musculus with 11 samples.

Results

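The Adamts genes encode secreted zinc metalloproteinases with thrombospondin repeats, and the Adamts-like genes encode relatives that keep the repeats and lack the protease domain. 10 of them (Adamts1, Adamts2, Adamts4, Adamts5, Adamts10, Adamts12, Adamts15, Adamtsl2, Adamtsl4 and Adamtsl5), taken by symbol from the 27998 genes of the 10x gene lists, were followed through the hepatic mesenchyme of Pdgfrb-GFP mice. The proteases cut matrix molecules such as aggrecan, versican and the propeptides of fibrillar collagens, and the Adamts-like proteins bind fibrillin microfibrils, which store latent TGF-beta. Scar tissue in the liver is laid down by its mesenchymal cells, the vitamin A-storing hepatic stellate cells (HSCs) of the sinusoid, the portal fibroblasts (FBs) and the vascular smooth muscle cells (VSMCs).

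All mice carried a GFP transgene on the Pdgfrb promoter, and GFP+ CD45- CD102- cells were sorted, so cells that do not use this promoter were not sampled. 5 droplet (10x) libraries of 3 mice each were compared: uninjured, 72 h after a single dose of the hepatotoxin CCl4 and after 6 weeks of CCl4 with the HSC isolation, and uninjured and 6 weeks of CCl4 with the portal fibroblast (PF) isolation. The mice of a library were pooled, so there was 1 library per condition and isolation, and no test between conditions was possible for these cells. 6 Smart-seq2 plates of 2 or 3 mice each added 14 days of bile duct ligation (BDL), next to uninjured mice and to 6 weeks of CCl4. After filtering, 30999 cells and 2065 wells in 17 portions were kept, a portion being the wells of 1 mouse on 1 plate.

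The family members fall into groups by role. Adamts1 (ENSMUSG00000022893; GRCm38 chromosome 16, 85793827 to 85803113, minus strand), Adamts4 (ENSMUSG00000006403; chromosome 1, 171250421 to 171260637, plus strand), Adamts5 (ENSMUSG00000022894; chromosome 16, 85856173 to 85901828, minus strand) and Adamts15 (ENSMUSG00000033453; chromosome 9, 30899155 to 30922452, minus strand) encode proteases of the large proteoglycans aggrecan and versican. Adamts1 and Adamts5 are neighbours, with 53059 bases and 0 protein-coding genes between them. Adamts2 (ENSMUSG00000036545; chromosome 11, 50602084 to 50807573, plus strand) encodes the protease that removes the amino-terminal propeptide of procollagens. Adamts10 (ENSMUSG00000024299; chromosome 17, 33524204 to 33553782, plus strand) encodes a fibrillin-binding family member, and Adamts12 (ENSMUSG00000047497; chromosome 15, 11064790 to 11349231, plus strand) a protease that degrades cartilage oligomeric matrix protein. Adamtsl2 (ENSMUSG00000036040; chromosome 2, 27079379 to 27108981, plus strand), Adamtsl4 (ENSMUSG00000015850; chromosome 3, 95676201 to 95687917, minus strand) and Adamtsl5 (ENSMUSG00000043822; chromosome 10, 80339110 to 80348412, minus strand) encode Adamts-like proteins.

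The upstream sequence of 3 genes is shown because the results below turn on them. Adamts1 and Adamtsl4 were the members with the lowest ratios to uninjured after CCl4 in HSC-like cells, and Adamtsl2 had the steepest slope from the central to the portal end of the lobule. RefSeq promoters (GRCm38.p6) were matched for 6 of the 10 members. The 250 bases before the start of Adamts1 (chr16:85803114-85803363, minus strand), Adamtsl2 (chr2:27079129-27079378, plus strand) and Adamtsl4 (chr3:95687918-95688167, minus strand) read as follows, 5′ to 3′ on the strand of the gene, with TATAAA and GGGCGG in capitals.
Adamts1: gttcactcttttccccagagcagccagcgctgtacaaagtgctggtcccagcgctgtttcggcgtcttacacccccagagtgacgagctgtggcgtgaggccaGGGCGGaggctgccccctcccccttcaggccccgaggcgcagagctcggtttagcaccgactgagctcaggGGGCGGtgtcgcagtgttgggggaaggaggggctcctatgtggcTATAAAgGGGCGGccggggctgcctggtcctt
Adamtsl2: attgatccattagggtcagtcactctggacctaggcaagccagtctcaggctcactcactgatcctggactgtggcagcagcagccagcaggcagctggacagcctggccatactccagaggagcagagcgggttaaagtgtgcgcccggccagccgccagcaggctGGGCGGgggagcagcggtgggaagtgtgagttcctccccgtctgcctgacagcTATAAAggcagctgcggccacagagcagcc
Adamtsl4: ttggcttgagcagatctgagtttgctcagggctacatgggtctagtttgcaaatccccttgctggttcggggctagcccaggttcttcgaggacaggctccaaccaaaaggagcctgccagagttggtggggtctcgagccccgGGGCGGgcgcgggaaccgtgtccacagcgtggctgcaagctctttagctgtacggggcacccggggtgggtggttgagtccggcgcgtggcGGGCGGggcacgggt
Adamts1 had the TATA box letters TATAAA from 32 to 27 bases before its start, and Adamtsl2 had them from 30 to 25 bases before its start. Adamtsl4 had no such match in this window. Of 32851 promoters of this length, 12.4% held TATAAA on either strand. The GC box GGGCGG, held by 32.7% of promoters, occurred 3 times upstream of Adamts1, at 147 to 142, 76 to 71 and 25 to 20 bases before the start. It occurred once upstream of Adamtsl2 and 2 times upstream of Adamtsl4. None of the 6 windows held the letters of AP-1 (TGANTCA, in 6.75% of promoters), CRE (TGACGTCA, 1.55%), TEAD (GGAATG, 12.6%) or C/EBP (TTGCNNAA, 9.56%), searched on both strands. These matches describe letters only, and binding was not measured.

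The depth of the 10x libraries ran from 25962957 to 86661230 UMIs, with medians of 4299 to 11343.5 UMIs per cell, and any pair of libraries shared 33 to 74 cell barcodes. Clusters were named from marker genes, with the family and its substrates left out of the clustering. HSC-like cells numbered 6826 in uninjured mice, 6050 at 72 h and 5299 at 6 weeks, FB-like cells 4096 uninjured and 2720 at 6 weeks, and VSMC-like cells 1633 uninjured and 2924 at 6 weeks. A cluster of 1082 cells at 72 h, led by Atp1a4 and Alpl, stayed unnamed, and 176 FB-like cells of that library, whose FB markers were far lower than in the PF libraries, were not compared. The HSC markers of the unnamed cluster summed to 11608 CPM, above the HSC-like cells of the same library. The HSC-like class was held by different clusters in each library: clusters led by Cxcl10, Clec4g and Fcna in uninjured mice, by Plagl1 and by the mitotic gene Ube2c at 72 h, and by Egr2, Spidr, Clec4g and Cxcl10 at 6 weeks. In these cells the summed level of the 7 HSC markers was 27282, 5158 and 15017 UMIs per 1000000 UMIs (CPM) in uninjured mice, at 72 h and at 6 weeks, and none of the 7 was at 0. FB markers summed to 15501 and 15428 CPM in uninjured and 6 week FB-like cells, and VSMC markers to 34963 and 30691 CPM in VSMC-like cells. Hepatocyte markers summed to 33.5 to 51.9 CPM in HSC-like cells. Levels below are CPM over all UMIs of a class in a library, and their intervals cover counting error only.

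In uninjured liver the 3 classes differed in which members they expressed. The HSC-like cells came from the HSC isolation, and the FB-like and VSMC-like cells from the PF isolation. Where HSC-like levels are set against the other classes, cell type and isolation therefore cannot be told apart. The FB-like and VSMC-like levels came from the same library. Adamts1 stood at 479.6 CPM in VSMC-like cells (95% interval 461 to 499) and at 465 CPM in HSC-like cells (459 to 471), whose intervals overlapped. FB-like cells had 165 CPM. Adamtsl2 stood at 187 CPM in HSC-like cells, with 45.9 CPM in FB-like cells and 22.3 CPM for VSMC-like cells. The VSMC-like value rests on the smallest of the 3 VSMC-like clusters, whose 115 of 1633 cells held 101 of the 116 Adamtsl2 UMIs (234 CPM, against 5.85 and 2.05 CPM in the other clusters). Adamtsl4 followed the same order, with 93.1, 19.9 and 6.91 CPM. Both Adamts-like genes were thus highest in the HSC-like cells of the HSC isolation, and Adamtsl5 was not. Adamtsl5 led in FB-like cells with 54.1 CPM, and the HSC-like (23.0 CPM) and VSMC-like (23.8 CPM) levels did not differ beyond their intervals. Adamts2 also led in FB-like cells (240.4 CPM), before HSC-like (206 CPM) and VSMC-like cells (40.3 CPM), and it too was highest in that small VSMC-like cluster, at 269 CPM against 17.6 and 20.5 CPM. Adamts10 had the order HSC-like (81.3 CPM), FB-like (interval 47.0 to 53.1 CPM) and VSMC-like (35.7 CPM), with no overlap of the intervals. Adamts5 had the reverse order of classes at its ends, with 179 CPM for VSMC-like, 133 CPM for FB-like and 89.7 CPM for HSC-like cells.

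The 3 remaining proteases were low in every class. Adamts4 stood at 10.5, 9.55 and 10.2 CPM in uninjured HSC-, FB- and VSMC-like cells, which did not differ beyond their intervals. Adamts15 ranged from 8.07 to 13.7 CPM, highest in FB-like cells. Adamts12 was at 4.07 CPM (HSC-like) and 6.32 CPM (FB-like), and rested on 7 UMIs in VSMC-like cells. When each cell was thinned to 2000 UMIs, the median cell showed 2 of the 10 members in uninjured HSC-like cells and 1 in every other class and condition, and 11.5% of uninjured HSC-like cells showed none. Adamts1 was seen in 56.2% of these thinned HSC-like cells (87.1% before thinning, at a median of 6718 UMIs), Adamtsl4 in 17.0% and Adamts4 in 1.76%. For comparison Adamtsl4 was seen in 1.23% of thinned uninjured VSMC-like cells, and no class known to lack a member was at hand to set the background.

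**Figure D1:**
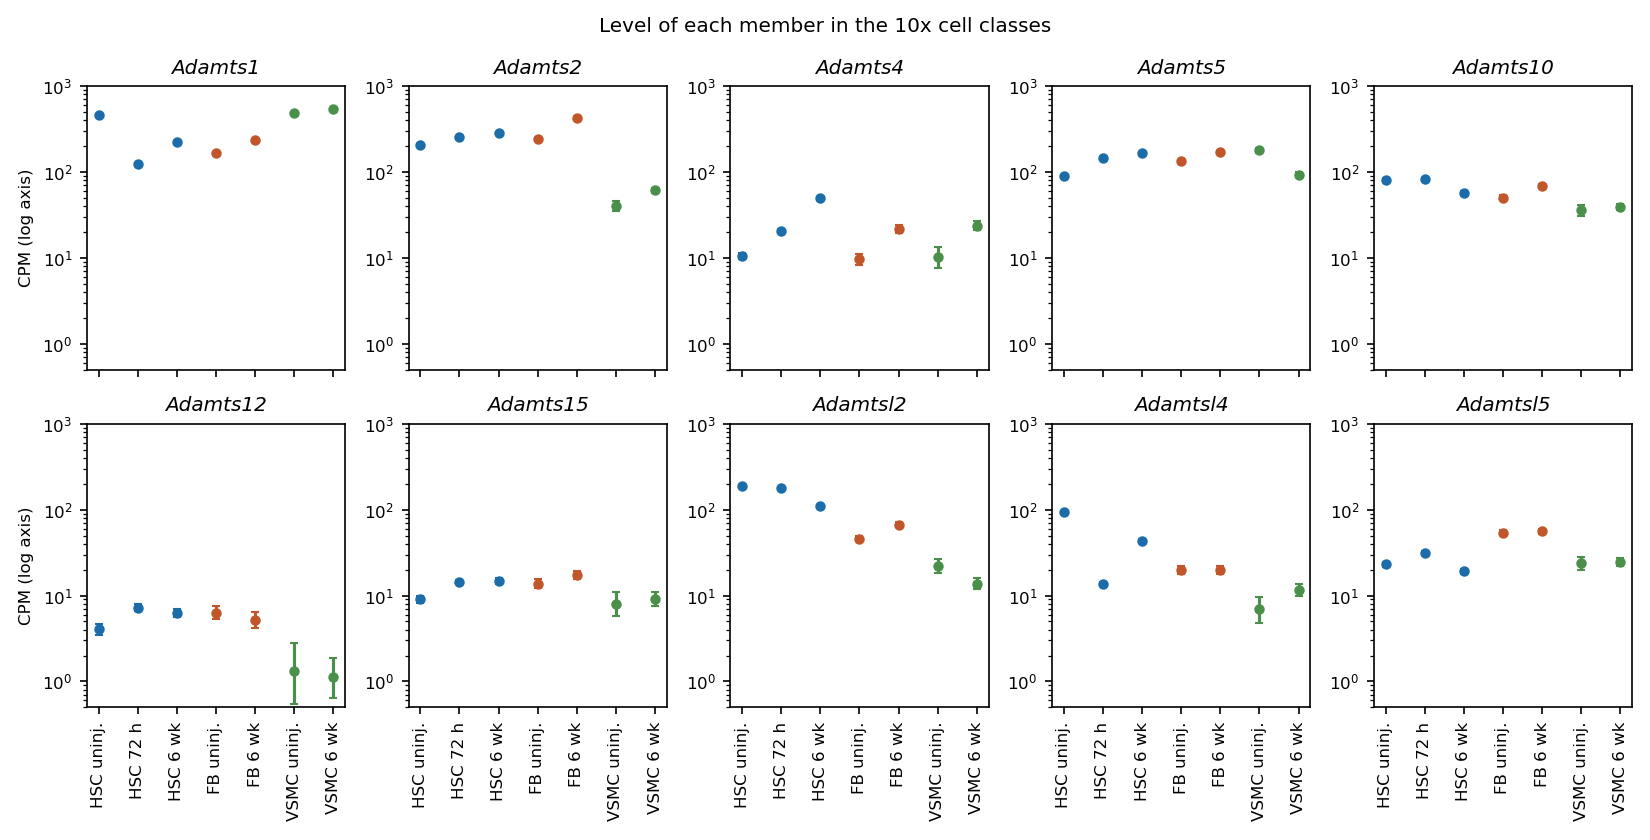
CPM of each member (log axis) in HSC-like, FB-like and VSMC-like cells of the 10x libraries, 1 point per library and class, with bars for the exact 95% counting interval. Adamts4 stood at 10.5, 20.5 and 49.3 CPM in HSC-like cells of uninjured mice, at 72 h and at 6 weeks, and Adamtsl4 at 93.1, 13.7 and 43.6 CPM.

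Acute injury asks how stellate cells respond to 1 toxic hit. Adamts1 and Adamtsl4 were lower and no member was 2 times as high or more 72 h after CCl4. Adamts1 was at 123 CPM against 465 CPM in uninjured HSC-like cells, a ratio of 0.264 (95% interval 0.258 to 0.271). Adamtsl4, whose protein binds fibrillin, was at 13.7 CPM against 93.1 CPM, a ratio of 0.147 (0.137 to 0.157). The 2 members lowered past 2-fold of 10 compare with 10.3% of the 12081 genes counted (100 UMIs or more over both groups) lowered that far and 11.1% raised that far. The median gene had a log2 ratio of -0.17, so relative to it the ratios of Adamts1 and Adamtsl4 were 0.298 and 0.166.

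Unlike Adamts1, the other proteoglycan proteases stood above their uninjured level at 72 h. Adamts4 was at 20.5 CPM (ratio 1.95, 1.76 to 2.16), Adamts5 at 147 CPM (1.64, 1.58 to 1.70) and Adamts15 at 14.3 CPM (1.59, 1.41 to 1.78). Adamts12 was also higher, at 7.24 CPM (1.78, with its whole interval above 1). Relative to the median gene, Adamts4 and Adamts12 had ratios of 2.20 and 2.01, past the 2-fold mark. Adamts2, the procollagen protease, was at 257 CPM, a ratio of 1.24 (1.21 to 1.27). Adamtsl5 had a ratio of 1.37 (1.27 to 1.47). Adamts10 and Adamtsl2 stayed near the uninjured level with ratios of 1.02 and 0.954, and Adamtsl2 lay at 1.07 relative to the median gene. The median log2 ratio of the members was 0.38.

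Other values moved with these differences, and their part in them was not tested. The 9 immediate early genes, which respond to handling as well as to injury, summed to 13368 CPM in uninjured HSC-like cells, 7061 CPM at 72 h and 11384 CPM at 6 weeks. The heat shock genes summed to 2809, 899.9 and 2815 CPM. HSC markers were also lower at 72 h, as given above, with Ecm1 at 795 CPM against 15321 CPM, while the VSMC markers summed to 1934 CPM in HSC-like cells at 72 h against 587 CPM. In the unnamed Atp1a4 cluster at 72 h, Adamtsl4 stood at 29.1 CPM, Adamts1 at 173 CPM, Adamts2 at 137 CPM and Adamts5 at 60.1 CPM. With these cells added to the HSC-like cells, the log2 ratios of Adamts1 and Adamtsl4 were -1.85 and -2.58, against -1.92 and -2.77 without them. Uninjured mice and mice at 72 h shared no HSC-like cluster with 50 cells of each, so no value within a cluster could be given.

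After 6 weeks of CCl4, Adamts4 was the member that stood out in HSC-like cells. It was at 49.3 CPM against 10.5 CPM, a ratio of 4.69 (4.26 to 5.18), and the share of thinned cells with a UMI was 7.81% against 1.76%. Adamts1 (ratio 0.479, 0.468 to 0.490) and Adamtsl4 (0.468, 0.445 to 0.493) were lower past 2-fold, less far than at 72 h. 1 member of 10 was 2 times as high or more, against 4.16% of the 11573 genes counted, and 2 were at 0.5 times or less, against 2.31%. The median gene had a log2 ratio of -0.20. Relative to it, Adamts4 had a log2 ratio of 2.43, Adamts5 passed 2-fold at a log2 ratio of 1.07, and Adamts1 and Adamtsl4 no longer did, at ratios of 0.551 and 0.539.

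The other members showed smaller differences at 6 weeks. Adamts5 was at 164 CPM, a ratio of 1.82 (1.76 to 1.89), Adamts15 at a ratio of 1.65 (1.46 to 1.86), Adamts12 at 1.53 (1.27 to 1.84) and Adamts2 at 1.37 (1.33 to 1.40). Adamtsl2 was at 111 CPM, a ratio of 0.595 (0.575 to 0.615), where at 72 h it had been at 178 CPM. Adamts10 was at 57.4 CPM, a ratio of 0.707, and Adamtsl5 at 19.2 CPM, a ratio of 0.836. The 72 h and 6 week values share the same uninjured library. Markers of the other classes moved with these values in HSC-like cells at 6 weeks: FB markers summed to 2257 CPM against 1543 CPM (Dpt 163 against 6.73 CPM, Gpx3 341 against 17.2 CPM) and VSMC markers to 963 CPM against 587 CPM (Acta2 149 against 24.9 CPM). Their part in the differences was not tested.

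**Figure D2:**
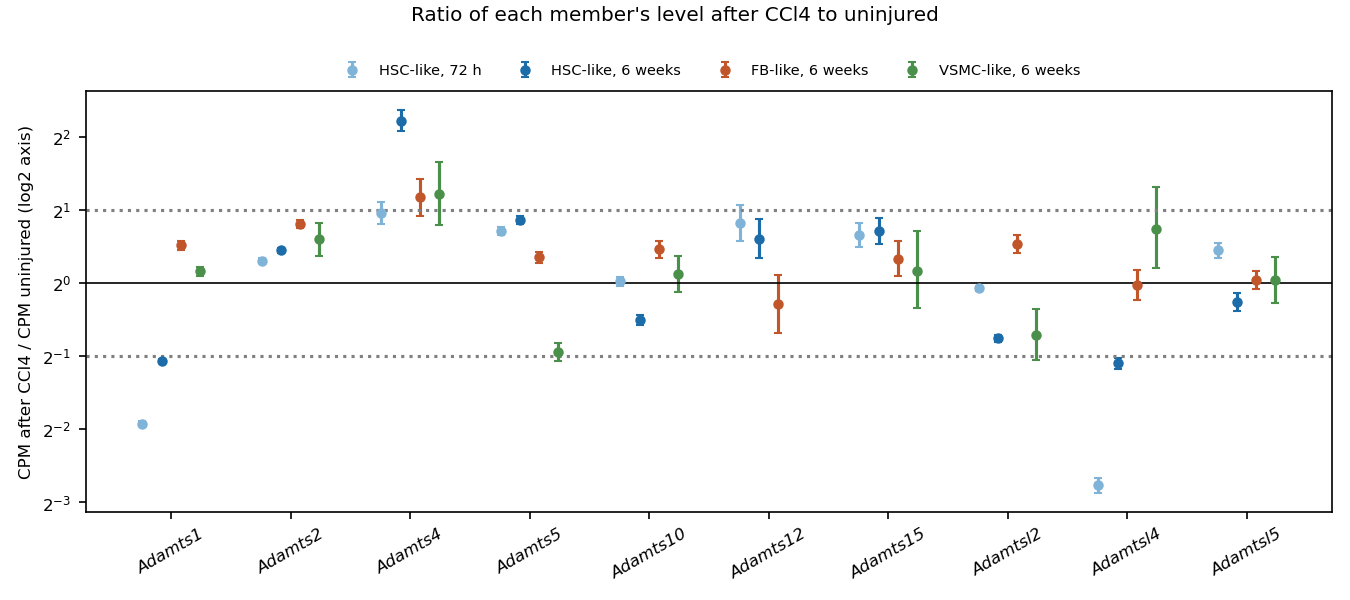
Ratio of CPM after CCl4 to CPM in uninjured mice (log2 axis) for each member in HSC-like cells at 72 h and 6 weeks and in FB-like and VSMC-like cells at 6 weeks, with bars for the exact 95% counting interval, a solid line at 1 and dotted lines at 2-fold. Adamts4 was above 1 in all 4 comparisons (1.95, 4.69, 2.27 and 2.33), and Adamtsl4 was lowest at 72 h (0.147); Adamts12 in VSMC-like cells had too few UMIs to be shown.

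Since the mix of clusters differed between the libraries, the 6 week values were also taken within the 5 HSC-like clusters that held 50 cells of each library. Adamts4 was higher in 5 of 5 clusters, with ratios of 1.66 to 9.20 and every interval above 1. At 6 weeks it reached 94.1 CPM (89.7 to 98.6) in the cluster led by Egr2, of which it was itself a leading gene although left out of the clustering, and 55.1 CPM in the cluster led by Cxcl10 and Ccl2. In the clusters led by Spidr, Clec4g and Fcna it stood at 13.9, 11.6 and 10.2 CPM. The Egr2 and Cxcl10 clusters also had the higher immediate early sums at 6 weeks, 19195 and 14250 CPM, against 5462, 3056 and 6513 CPM in the other three. In uninjured mice these sums were larger still in the Egr2 and Cxcl10 clusters, at 26522 and 22328 CPM, where Adamts4 stood at 16.4 and 17.8 CPM. The part of the immediate early genes in the Adamts4 values was not tested. The highest ratio, 9.20 in the Spidr cluster, rests on 1 UMI in 99 uninjured cells (interval 1.63 to 365).

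For Adamtsl2, Adamts2 and Adamts5 the values within clusters differed from those over all cells. Adamtsl2 was lower in 5 of 5 clusters, with ratios of 0.232 to 0.496, each below the ratio of 0.595 over all HSC-like cells. In the Spidr cluster, for example, it stood at 167 CPM against 416 CPM. The Egr2 and Spidr clusters, where Adamtsl2 was highest in uninjured mice, held 1821 and 1390 of the HSC-like cells at 6 weeks and 149 and 99 in uninjured mice. Adamts2 had ratios of 0.947 to 1.11, with 0 of 5 intervals clear of 1, against 1.37 over all HSC-like cells. Adamts5 had ratios of 1.07 to 1.76, with 3 of 5 intervals above 1, and each was below the ratio of 1.82 over all cells. Adamts1 (0.451 to 0.631), Adamtsl4 (0.411 to 0.654) and Adamts10 (0.557 to 0.702) were lower in 5 of 5 clusters with every interval below 1.

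In FB-like cells at 6 weeks, Adamts4 was again the member past 2-fold, at 21.6 CPM against 9.55 CPM, a ratio of 2.27 (1.90 to 2.70). That 1 member of 10 compares with 1.98% of the 11239 genes counted raised that far, and 0 members compare with 0.730% lowered that far. Adamts2 was at 422 CPM against 240.4 CPM (1.75, 1.69 to 1.82), Adamtsl2 at 67.1 against 45.9 CPM (1.46, 1.34 to 1.59), Adamts1 at 237 against 165 CPM (1.44) and Adamts10 at 68.8 CPM (1.38), the last pair with whole intervals above 1. The VSMC markers in FB-like cells summed to 2201 CPM against 968 CPM (Acta2 1061 against 417 CPM, Myh11 165 against 58.5 CPM), and their part in these ratios, among them that of Adamts1, which is higher in VSMC-like cells, was not tested. Adamts1, Adamts10 and Adamtsl2 were therefore higher in FB-like cells and lower in HSC-like cells at the same time point, a difference that was not tested. Adamts5 had a ratio of 1.28 and Adamts15 of 1.26, and the intervals of Adamts12, Adamtsl4 and Adamtsl5 spanned 1. Within the 4 FB-like clusters Adamts4 was higher in 4 of 4 (1.62 to 5.78, with 3 intervals above 1). Adamts2 was higher in 3 of 4, up to 633 against 302 CPM in the cluster led by Wif1. Adamtsl2 was also higher in 3 of 4, with 2 intervals above 1, and stood at 211 against 119 CPM in the Wif1 cluster. Its ratio was 1.13 (0.993 to 1.28) in the largest cluster, led by Avpr1a, and 0.956 in that led by Krtdap. Adamts5 in the cluster led by Krtdap and Ly6c1 was at 491 against 230.0 CPM, and in that led by Cxcl13 and Rspo1 at 132 against 177 CPM.

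In VSMC-like cells at 6 weeks, Adamts4 was at 23.7 CPM against 10.2 CPM, a ratio of 2.33 (1.74 to 3.18). It was the 1 member of 9 counted past 2-fold, against 2.84% of the 9428 genes counted, and 0 members were at 0.5 times or less, against 0.456% of genes. Adamts5 came nearest to that mark, at 93.2 CPM against 179 CPM, a ratio of 0.522 (0.479 to 0.569), and at 0.498 relative to the median gene. The mix of VSMC-like clusters differed between the libraries. The cluster led by Cd24a and Higd1b, low in Adamts5 (81.9 CPM in uninjured mice), held 465 of 1633 cells in uninjured mice and 1704 of 2924 at 6 weeks, and the one led by Pgam2 and Corin, at 216 CPM, held 1053 and 1093 cells. Adamts5 was lower in 3 of 3 clusters, with ratios of 0.487 to 0.807, the latter in the Pgam2 cluster, and Adamts4 was higher in 2 of 3. Adamts2 had a ratio of 1.52 (1.30 to 1.77), Adamtsl4 of 1.68 (1.16 to 2.49) and Adamts1 of 1.12 (1.07 to 1.17). Adamtsl2 had a ratio of 0.614 (0.484 to 0.783), but it was lower in 1 of 3 clusters only, the smallest one (0.636), which held 115 of 1633 cells in uninjured mice and 127 of 2924 at 6 weeks. In the Cd24a cluster it stood at 7.32 against 5.85 CPM and in the Pgam2 cluster at 4.37 against 2.05 CPM, with intervals of the ratio that spanned 1. Adamts10, Adamts15 and Adamtsl5 had intervals that spanned 1, and Adamts12 rested on 7 and 15 UMIs. Both PF libraries share their uninjured control between FB-like and VSMC-like cells. The immediate early genes summed to 13677 and 12636 CPM in uninjured and 6 week FB-like cells and to 15927 and 12118 CPM in VSMC-like cells. Their part in the Adamts4 values was not tested.

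Stellate cells differ along the lobule between the central vein and the portal tract. Each HSC-like cell was scored by the 52 portal and 27 of the 29 central genes of the study's zonation signature, with Adamtsl2 and Adamts5 left out, and the cells of each library were parted into 3 equal groups. The study chose these genes on these cells, so the values describe the pattern. Adamtsl2 ran from 297 CPM at the central end through 185 CPM to 83.3 CPM at the portal end in uninjured mice, 3.57 times as high at the central end (3.35 to 3.80). At 72 h the step was 1.96 times (224, 197 and 114 CPM), and at 6 weeks it was 4.45 times (172, 121 and 38.7 CPM). Adamts5 had steps of 3.33, 1.81 and 2.47 times toward the central end, with 148, 188 and 212 CPM there in uninjured mice, at 72 h and at 6 weeks. Its level after injury was above the uninjured level at both ends of the score, as the portal end had 44.3, 104 and 85.7 CPM. Adamts2 was also higher at the central end, by 1.47, 1.57 and 2.03 times. The score groups left out the unnamed Atp1a4 cluster, with 24 uninjured cells, 1082 at 72 h and 120 at 6 weeks. Its leading genes include Itgb3, a portal gene of the study's signature. At 72 h its Adamtsl2 (interval 45.7 to 54.6 CPM) and Adamts5 (60.1 CPM) lay below the portal end of the HSC-like cells. The part of these left-out cells in the 72 h steps of the members was not tested.

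Other members leaned to the portal end or were flat. Adamts1 was 1.19, 1.12 and 1.72 times as high at the portal as at the central end in uninjured mice, at 72 h and at 6 weeks. Adamtsl4 was flat in uninjured mice (1.05, 0.974 to 1.13) and 1.86 times as high at the portal end at 6 weeks (1.67 to 2.06), from 32.3 to 59.9 CPM. Adamtsl5 was 1.52 times as high at the portal end in uninjured mice and 2.24 times at 6 weeks, with 1.01 at 72 h. Adamts4 was 2.42 times as high at the portal end in uninjured mice (6.62 to 16.0 CPM) and 1.75 times at 72 h, but at 6 weeks it stood at 50.6, 53.6 and 43.7 CPM from the central to the portal end, a ratio of 0.863. Adamts10 varied least, with 81.8, 79.7 and 82.4 CPM in uninjured mice. The immediate early sum was lower toward the portal end in every library, from 14908 to 11518 CPM in uninjured mice and from 13030 to 8991 CPM at 6 weeks.

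**Figure D3:**
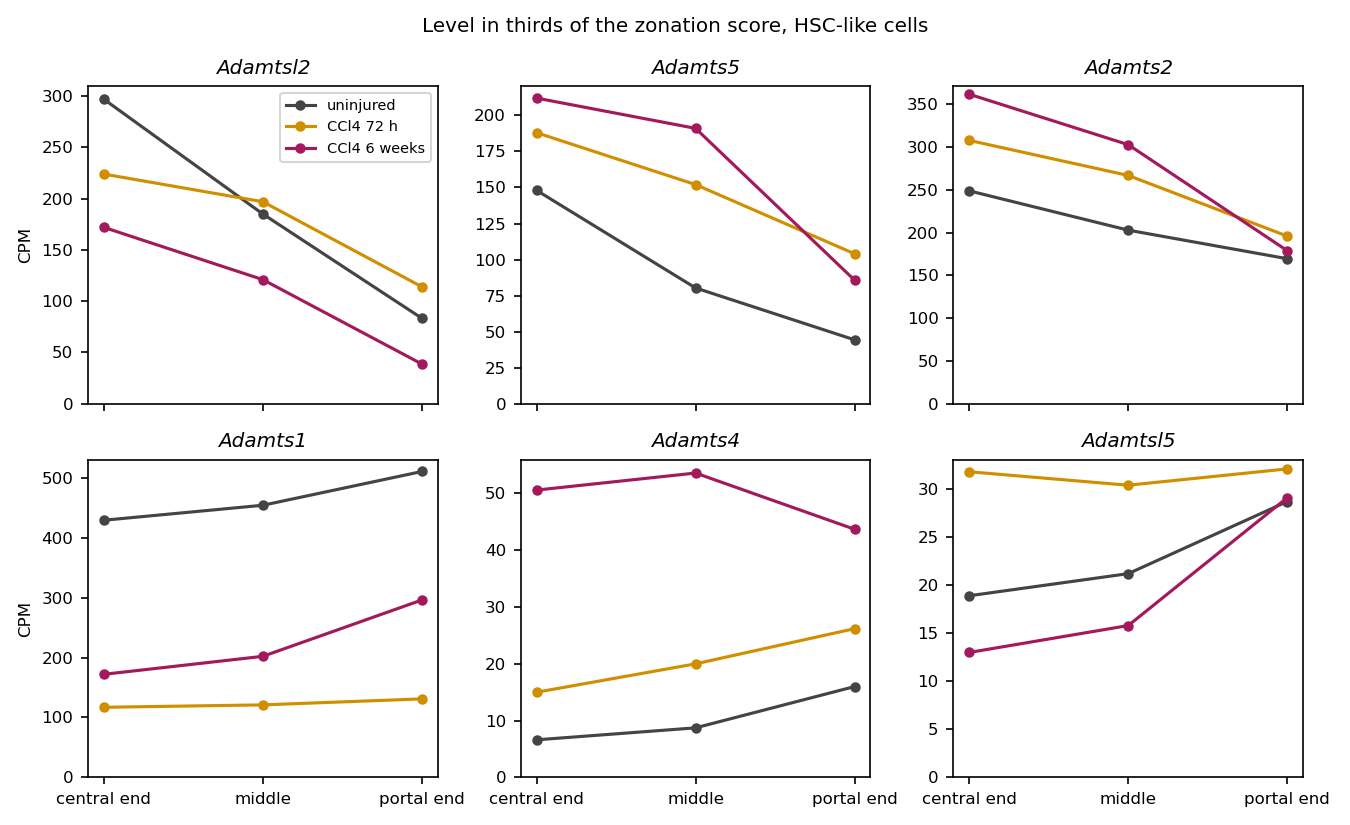
CPM of 6 members in HSC-like cells parted into 3 equal groups by the zonation score, from the central to the portal end, with 1 line per library. Adamtsl2 runs from 297 to 83.3 CPM in uninjured mice, and Adamts4 at 6 weeks lies at 43.7 to 53.6 CPM across the score, above the other libraries at each point.

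The rest of the family, the substrates and the regulators were counted from fixed lists. Of all genes counted, 11.1% were past 2-fold higher and 10.3% past 2-fold lower at 72 h, and at 6 weeks the share past 2-fold higher was 4.16% (HSC-like), 1.98% (FB-like) and 2.84% (VSMC-like). Of 15 other family genes, 8 had enough UMIs in HSC-like cells. Adamts13, the protease of von Willebrand factor that stellate cells make, was at 157 CPM in uninjured mice, 21.1 CPM at 72 h (0.134, 0.127 to 0.142) and 91.4 CPM at 6 weeks (0.583). Papln (0.215) and Adamts3 (0.476) were also lower at 72 h, while Adamts7 (5.22) and Adamtsl1 (5.72) were higher, and these last were the 2 past 2-fold at 6 weeks (3.56 and 10.4). In VSMC-like cells Adamts9 had a ratio of 5.64 (3.62 to 9.24), and 0 of 7 counted family genes passed 2-fold in FB-like cells. Of the substrates and binding partners, 8 of 11 counted were past 2-fold higher at 72 h, with the largest ratios for Fbn2 (59.3), Col1a1 (11.2), Vwf (7.72), Col1a2 (4.99) and the proteoglycan Vcan (4.70). The median log2 ratio of that list was 1.83, against 0.38 for the 10 members and -0.17 for all genes. At 6 weeks 3 of 10 were higher (Fbn2 13.7, Col1a1 2.98, Thbs1 2.72), with 0 of 10 in FB-like cells and 1 of 9, Acan (4.08, 2.31 to 7.86), in VSMC-like cells. Of the inhibitors and processing genes, Timp3, an inhibitor of the aggrecanases, was the 1 of 6 past 2-fold in HSC-like cells, at 107, 221 and 234 CPM in uninjured mice, at 72 h and at 6 weeks.

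Across the 31 groups of 50 cells or more from 1 cluster and 1 library, the members peaked in different places. Adamts1 was highest at 629 CPM in the 6 week VSMC-like cluster led by Pgam2, and Adamts2 (633 CPM) and Adamts15 (24.7 CPM) in the 6 week FB-like cluster led by Wif1. Adamts5 (491 CPM) and Adamtsl5 (93.7 CPM) were highest in the 6 week FB-like cluster led by Krtdap and Ly6c1. Adamts10 (104 CPM) and Adamtsl2 (416 CPM) were highest in the uninjured HSC-like cluster led by Spidr, of 99 cells. Adamtsl4 peaked at 96.8 CPM in the uninjured HSC-like cluster led by Clec4g, and Adamts12 at 9.47 CPM in the unnamed Atp1a4 cluster at 72 h. The peaks of Adamts10, Adamtsl4, Adamts12 and Adamts15 did not differ beyond their intervals from the next highest groups, at 99.3, 94.4, 9.14 and 19.8 CPM. For Adamts15 that next group was HSC-like, the Spidr cluster at 6 weeks. For Adamtsl5 the next group was the same cluster in uninjured mice, at 78.1 CPM (ratio 1.20, 1.00 to 1.43).

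As a description over these 31 groups, which share libraries and depth, Adamts10 and Adamtsl2 were the most alike pair of members, with a Pearson r of log2(CPM + 1) of 0.88, and Adamts1 and Adamts2 the least, with -0.50. Among 8833 genes, the 3 most like Adamts2 were Fbln5 (0.941), Lum (0.937) and Creb3l1 (0.926). Those most like Adamtsl2 included Plekha6 (0.893) and Ryk (0.886), and those most like Adamts10 were Adamtsl2 (0.878), Pcdh7 (0.854) and Cx3cl1 (0.831). Adamtsl4 was most like Ecm1 (0.907), Dcbld2 (0.870) and Sbds (0.867). Ecm1, itself one of the HSC markers, lies 46229 bases from Adamtsl4 on chromosome 3 (95734147 to 95739569), on the same strand and with 0 protein-coding genes between them. Adamtsl5 was most like Serpinb6a (0.911), S100a13 (0.877) and Scd1 (0.864), and Adamts1 most like Pja2 (0.858), Ppm1l (0.853) and Sdha (0.851). Adamts4 (Pim1 0.639, Sbno2 0.625, Mrap 0.611), Adamts5 (Kdm7a 0.635, Ndrg1 0.624, 2510009E07Rik 0.602) and Adamts15 (AI413582 0.664, Gm10600 0.642, Shisa3 0.633) had no gene as close, and Adamts12 stayed under the 20 CPM that this comparison asked for.

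The Smart-seq2 plates hold replicate portions, in which the same classes could be compared with a spread. Levels are reads per 1000000 reads (RPM), summed over the wells of a class in a portion, and the median well of a portion held 388663 to 484155 reads. Unnamed clusters held 17 of 927 uninjured, 149 of 656 BDL and 163 of 482 CCl4 wells, which are in no class. Of the CCl4 wells, 136 were in a cluster led by Serpinb2, Mmp7 and Tm4sf4, and 19 in one led by Msln and Upk1b. In the 13 portions that held both classes, Adamts1 was lower in FB-like than in VSMC-like wells in all 13, with medians of 519 and 1701 RPM. Adamts2 (1274 against 111 RPM), Adamts10 (176 against 83.3 RPM), Adamts15 (129 against 43.3 RPM) and Adamtsl2 (274 against 6.85 RPM) were higher in FB-like wells in 13 of 13 portions. Adamts5 was higher in FB-like wells in 11, Adamts12 in 9, Adamts4 and Adamtsl5 in 7 and Adamtsl4 in 6 of them. For Adamts5 this was opposite to the uninjured 10x order of VSMC-like above FB-like cells. Its medians over uninjured portions were 262 RPM (FB-like) and 218 RPM (VSMC-like). Adamtsl4 and Adamtsl5, higher in FB-like than in VSMC-like cells by 10x, had close medians in the wells (56.5 and 56.4 RPM, 46.0 and 42.8 RPM). All HSC-like wells came from plate 6, the plate with the HSC isolation, so for them class and isolation cannot be told apart either. The 2 portions of uninjured HSC-like wells had Adamtsl4 at 256 and 287 RPM, above every FB-like (19.9 to 92.3 RPM) and VSMC-like portion (34.2 to 187 RPM). Their Adamts4 was at 12.0 and 13.9 RPM. Their Adamtsl2, at 325 and 342 RPM, lay within the range of the uninjured FB-like portions (96.8 to 717 RPM). The same held for their Adamts10, at 228 and 202 RPM against 136 to 274 RPM. The 10x order of HSC-like above FB-like cells was thus not seen in the wells for Adamtsl2 and Adamts10.

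BDL and CCl4 were each set against uninjured mice in 1 edgeR quasi-likelihood fit per class with plate as a term, over 6 uninjured, 3 BDL and 4 CCl4 portions for FB-like and 6, 5 and 4 for VSMC-like wells. Plate 6 held 1 portion of each of these classes, which its plate term takes up, so it adds nothing to the fold changes. These rest on the uninjured portions of plates 1, 2 and 4 for BDL and of plates 3 and 5 for CCl4. Ranges of uninjured portions given below take in all 6 plates. None of the 10 members was called (Benjamini-Hochberg adjusted p under 0.05 over all genes) in any of the 4 comparisons. Of all genes, 5 of 15730 (0.0318%) were called in FB-like wells after BDL, 1 of 15943 (0.00627%) in VSMC-like wells after BDL and 0 (0%) in either class after CCl4. At an unadjusted p under 0.05 there were 774, 988, 271 and 481 genes, and 0, 1, 0 and 0 members. DESeq2 called 0 members as well. The median log2 fold change of the 10 members was -0.31 after BDL and 0.08 after CCl4 in FB-like wells, and 0.08 and -0.11 in VSMC-like wells, against -0.10, 0.00, 0.05 and 0.00 for all genes tested. Single members ran from -1.47 (Adamtsl2, FB-like, BDL) to 1.71 ± 1.52 (Adamts12, VSMC-like, BDL). Among the rest of the family, the substrates and the regulators 0 genes were called in these comparisons. The mouse labels of the layouts recur across plates, so some portions may come from the same mouse, and p-values measure the spread between portions. FB-like wells came mainly from the clusters led by Gria1 and Notum in uninjured and CCl4 mice and from those led by Zcchc5 and Ptx3 after BDL.

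Adamts2 after BDL in VSMC-like wells was the nearest to a call. The 5 BDL portions had 149, 150.4, 158, 167 and 287 RPM, and the 6 uninjured portions had a lowest of 55.8, a median of 83.0 and a highest of 166 RPM. Pooled over plates the groups overlapped, and 287 RPM stood apart from the other BDL portions. On plates 1, 2 and 4, which held the BDL mice, the uninjured portions had 94.1, 55.8 and 71.9 RPM. Each BDL portion was above the uninjured portion of its own plate. The highest uninjured values, 166 and 154 RPM, came from plates 5 and 6, which held no BDL mice. The log2 fold change was 1.33 ± 0.49 (SE; adjusted p = 0.666 by edgeR's quasi-likelihood test). With no filter on low counts it was 1.35, and its adjusted p was then 0.0117.

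For Adamts4, higher in the 10x FB- and VSMC-like cells at 6 weeks, the wells gave fold changes near 0 with wide errors. In FB-like wells the 4 CCl4 portions had 48.0, 65.8, 76.5 and 82.0 RPM and the 6 uninjured portions 37.8 to 112 RPM with a median of 46.3 RPM, a log2 fold change of 0.04 ± 0.71. In VSMC-like wells the CCl4 portions had 23.8, 38.2, 97.5 and 178 RPM and the uninjured portions 22.8 to 97.0 RPM, a log2 fold change of 0.09 ± 0.37. The groups overlapped in both classes, and the adjusted p was 1.00 in both by edgeR. The labels do not tie the wells to the mice of the 10x libraries, and the reads of the wells are not counted by molecule.

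Adamts1 after BDL in FB-like wells stood at 146, 395 and 591 RPM, against 488 to 997 RPM in uninjured portions, a log2 fold change of -0.72 ± 0.35 (adjusted p = 0.919 by edgeR). By plate, the BDL and uninjured portions of FB-like wells had 395 and 558 (plate 1), 146 and 519 (plate 2) and 591 and 631 RPM (plate 4). Adamtsl2 there stood at 16.5, 133 and 147 RPM against a lowest of 96.8, a median of 292 and a highest of 717 RPM, with a log2 fold change of -1.47 ± 1.13 (adjusted p = 0.919). The highest uninjured values of Adamts1 and Adamtsl2, 997 and 717 RPM, came from plate 6. On plates 1 and 4 Adamtsl2 was lower after BDL (16.5 against 363 and 147 against 309 RPM). On plate 2 Adamtsl2 was higher after BDL (133 against 96.8 RPM). After CCl4 its 4 FB-like portions were at 22.6, 527, 592 and 607 RPM, so 1 portion was far below the other three. Adamts5 in VSMC-like wells after CCl4 was at 74.5, 98.4, 158 and 179.6 RPM, against 80.2 to 305 RPM in uninjured portions, a log2 fold change of -0.77 ± 0.57 (adjusted p = 1.00). By plate, the CCl4 portions had 158 and 74.5 RPM against 203 RPM uninjured (plate 3), and 179.6 and 98.4 RPM against 233 RPM (plate 5). In the contrast of BDL with CCl4, 0 genes were called in either class, and 522 and 558 genes had an unadjusted p under 0.05 by edgeR.

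BDL wells also held a cluster that met no naming rule, led by Comp and Col11a1, with 125 of 656 BDL wells, 11 of 927 uninjured and 8 of 482 CCl4 wells. Its FB marker score (0.549) was above those of the FB-like clusters led by Gria1 (0.523) and Notum (0.504). It stayed unnamed because its leading genes held Ptprb, of the endothelial list, and no FB marker. The BDL comparison of FB-like wells thus kept 157 BDL wells and left these 125 out. Over its 5 BDL portions Adamts2 averaged 2925 ± 667 RPM (SD, n = 5), with single values of 2254, 2366, 2847, 3300 and 3858 RPM. All 5 lay above the BDL FB-like portions (648, 1329 and 1641 RPM; 1206 ± 508, n = 3). Adamtsl2 had 571, 576, 694, 1145 and 1182 RPM there, above the 16.5, 133 and 147 RPM of BDL FB-like portions. Adamts15 averaged 375 ± 285 RPM against 123 ± 59.4 RPM, and Adamts12 54.8 ± 52.3 RPM against 24.5 ± 20.5 RPM. Adamts5 went the other way, with 98.1 ± 54.0 RPM against 220.0 ± 107 RPM. The 1 uninjured portion of this cluster (plate 5, 5 wells) had Adamts5 at 578 RPM, against 114 to 279 RPM in uninjured FB-like portions. It had Adamts2 at 1454, Adamtsl2 at 941, Adamts15 at 85.9 and Adamts12 at 0 RPM. Low Adamts5 was thus seen in the BDL portions only. The wells were grouped by their expression, so these values are a description with no test. When they were added to the FB-like wells, the log2 fold change of Adamtsl2 after BDL was 0.97, against -1.47 without them, that of Adamts2 was 0.96, against 0.02, and that of Adamts4 was 0.71, against -0.37.

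**Figure D4:**
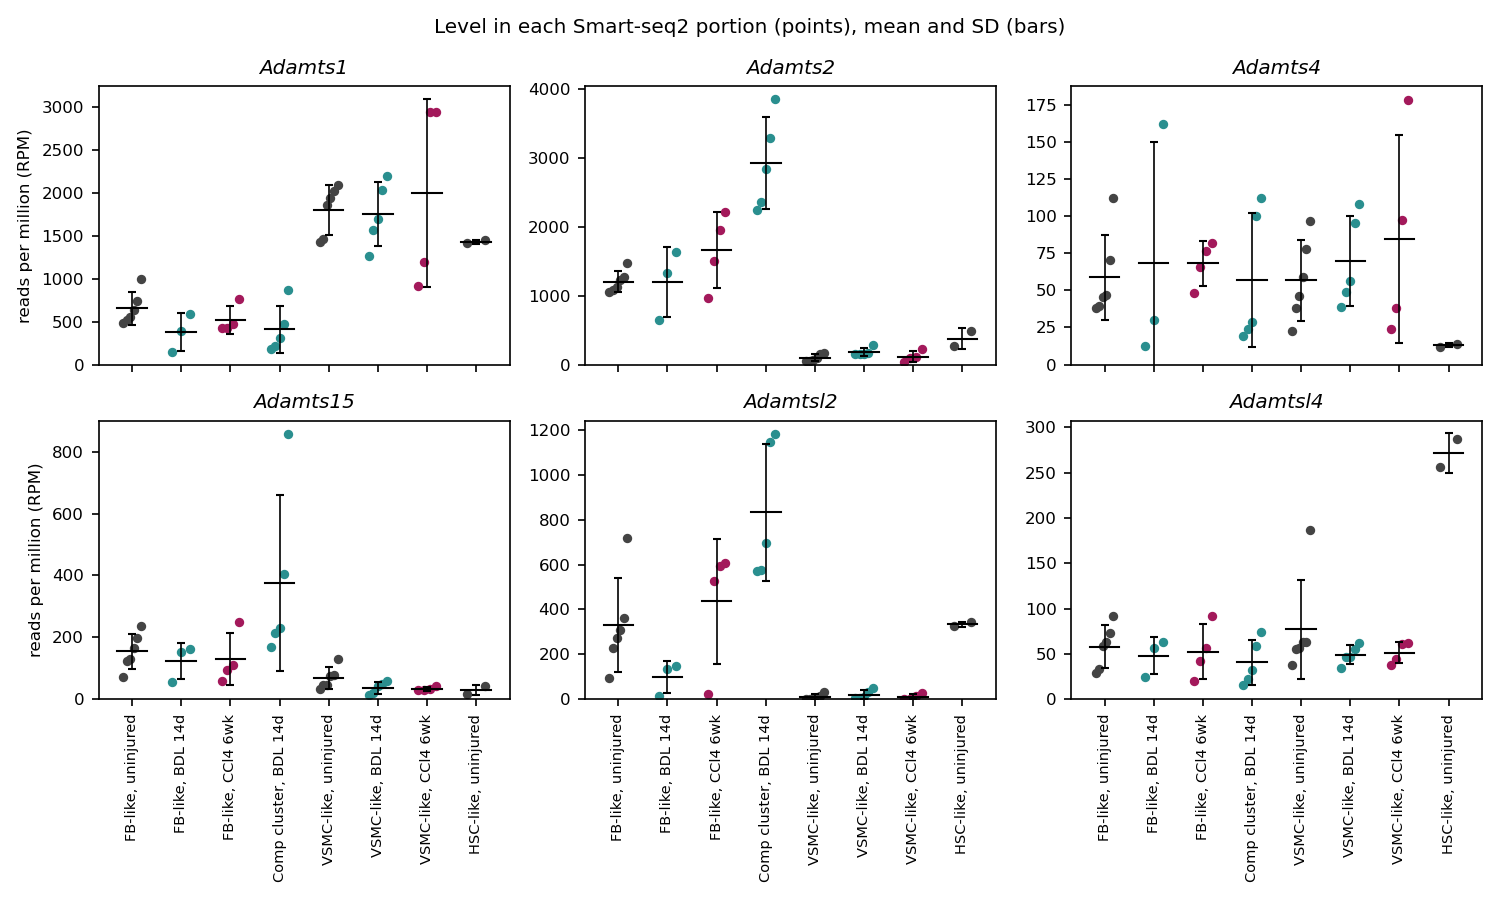
RPM of 6 members in each Smart-seq2 portion (points), with the mean (long bar) and SD (whiskers, cut off at 0), for FB-like, Comp-cluster, VSMC-like and HSC-like wells by condition. The Comp cluster is shown for BDL only. Adamts2 lies at 2254 to 3858 RPM in the Comp cluster after BDL, above all FB-like portions but near the highest CCl4 portion at 2221 RPM, and Adamtsl4 is highest in the 2 HSC-like portions.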

How the data were processed

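Single mesenchymal cells were profiled by 10x Chromium in 5 libraries and by Smart-seq2 on 6 plates. For 10x, the authors ran Cell Ranger 2.1.0 on mm10 and deposited raw UMI counts. For Smart-seq2, the authors used STAR with mm10, eGFP and ERCC sequences and deposited raw read counts for each well, with layouts that name the mouse of each well. Groups came from the labels and layouts. The members and gene lists were chosen with earlier results of these data known: all 10 members are named in every comparison, and of the 3 other lists those past a call, at most 5 a list by size.

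Cells with 300 genes or more and at most 30% mitochondrial UMIs, and genes seen in 3 cells, were kept, and wells beyond 3 median absolute deviations in reads, genes or spike-in share were dropped. Cells and wells were clustered (2000 variable genes without the members and listed genes, 10 components, 30 neighbours, Leiden resolution 0.8, leidenalg 0.10.2 with igraph 0.11.9) and named from fixed markers. Doublets were called by simulated pairs (238 to 427 per library) and kept in the main values. 10x cells with 3 or more markers of a non-mesenchymal type numbered 12 to 98 per library for hepatocytes and at most 6 for any other type. The largest counts of such wells were 24 of 482 (mesothelial, CCl4), 19 of 482 (cholangiocyte, CCl4) and 18 of 927 (hepatocyte, uninjured). UMIs were summed per class and library and given as CPM with exact Poisson intervals, shares with exact binomial intervals, and ratios with exact conditional intervals (95%, SciPy 1.17.1), all for counting error only. A gene was counted with 100 UMIs over both groups, and past 2-fold or 0.5-fold it was called, with no test. Reads were summed per class and portion with 5 wells or more and tested with edgeR 4.0.16 (glmQLFit and glmQLFTest, TMM, filterByExpr, plate and condition) in R 4.3.3, with Benjamini-Hochberg adjustment over all genes. 492 rows that shared a symbol with an earlier row were summed. Portions held 20999176 to 96347394 reads. The fits were tested on simulated counts. Alternatives were DESeq2 1.42.0, another normalization, no filter, no plate term, other cell sets, thinning and other thresholds. Smart-seq2 reads carry no strand, so reads of overlapping genes cannot be told apart. A few gene names are not reported here.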

Additional observations from a re-analysis of the deposited data

Results flagged for a closer look

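In 4 of 60 groups of Smart-seq2 portions (a member in a class and condition with 4 portions or more), a single portion stood apart from the rest by Dixon's test. Chance alone marks about 1 in 20 groups, so 4 is close to the number that chance gives. Adamts1 in FB-like wells after 6 weeks of CCl4 was at 768 RPM in 1 mouse of plate 5, with the next portion at 468 RPM. Adamts2 in VSMC-like wells after BDL was at 287 RPM in 1 mouse of plate 2, with the next at 167 RPM. Adamtsl2 in FB-like wells after CCl4 was at 22.6 RPM in 1 mouse of plate 5, with the next at 527 RPM. Adamtsl4 in uninjured VSMC-like wells was at 187 RPM in 1 mouse of plate 6, the plate that also held the HSC-like wells, with the next at 62.6 RPM.

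For 5 members the 10x ratio of 6 weeks of CCl4 to uninjured lay on opposite sides of 1 in different cell classes, with intervals that left out 1. These differences were not tested, as each class and condition came from 1 library. Adamts1 had ratios of 1.44 (FB-like), 1.12 (VSMC-like) and 0.479 (HSC-like). Adamts10 had 1.38 (FB-like) and 0.707 (HSC-like). Adamts5 had 1.82 (HSC-like), 1.28 (FB-like) and 0.522 (VSMC-like). Adamtsl2 had 1.46 (FB-like), 0.595 (HSC-like) and 0.614 (VSMC-like). Within the 4 FB-like clusters its ratio ran from 0.956 to 2.04, with 2 intervals above 1. The VSMC-like value rested on the smallest VSMC-like cluster (0.636), while Adamtsl2 was at 7.32 against 5.85 CPM and 4.37 against 2.05 CPM in the other clusters. Adamtsl4 had 1.68 (VSMC-like) and 0.468 (HSC-like). The HSC-like cells came from the HSC isolation and the other classes from the PF isolation, so for the HSC-like ratios class and isolation cannot be told apart. The FB-like and VSMC-like ratios, which differ in direction for Adamts5 and Adamtsl2, came from the same PF libraries.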

How the results depend on the processing

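Members past 2-fold in the 10x cells kept their direction under every alternative tried. Smaller log2 ratios changed sign with all cells of the PF libraries (Adamts5 to -0.05 and Adamtsl5 to -0.17 in FB-like, Adamtsl2 to 0.10, Adamtsl4 to -0.08 and Adamtsl5 to -0.17 in VSMC-like cells), with size factors (Adamtsl2 at 72 h to 0.11, Adamtsl5 in VSMC-like cells to -0.03), and, for Adamtsl4 in FB-like cells, with thinning (0.26), without doublets (0.04) and with means of cells (0.06), which also turned Adamtsl5 in VSMC-like cells (-0.04). The number of genes past 2-fold was 1172 with 30 UMIs or more and 493 with thinned cells in HSC-like cells at 6 weeks (748 in the report), 539, 181 and, with all cells of the library, 508 in FB-like cells (305), and 592 and 508 in VSMC-like cells with 30 UMIs and with all cells (311). At resolution 0.4 the highest group was HSC-like for 7 members instead of 4. With 1 library per condition, depth limits counting error only.

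Calls in the wells depended on the method. The alternative with all wells was the same fit for FB-like and VSMC-like wells. It pooled every class and the unnamed wells of a portion, so its mix of cells differs from that of either class. After BDL in FB-like wells the 5 calls became 3 with RLE normalization, 400 with DESeq2, 38 with no filter, 15 with no plate term, 0 with all wells, 0 with the Comp cluster (an alternative chosen after seeing the data, as was the Atp1a4 one) and 0 to 0 with a plate left out. After BDL in VSMC-like wells the 1 call became 525 with DESeq2, 148 with no filter, 43 with no plate term, 0 with all wells and 0 to 23 with a plate left out (23 without plate 4, 0 without plate 1 or plate 2). After CCl4 the 0 calls became 47 with DESeq2 and 1 with all wells in FB-like wells, and 262 with DESeq2, 18 with no filter and 1 with all wells in VSMC-like wells. The cause was not tested. No member was called in any of them, except Adamts2 after BDL in VSMC-like wells with no filter (1.35). The plate term set injured portions beside the uninjured portion of the same plate. No pairing beyond this was possible, because the labels' replicate numbers name plates.

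Log2 fold changes of members that were not called changed sign as follows. With all wells, FB-like BDL gave 0.08 (Adamts1), 0.45 (Adamts4), -0.23 (Adamts5), 0.58 (Adamtsl2) and 0.00 (Adamtsl5), FB-like CCl4 gave -0.15 (Adamts4), -0.33 (Adamts10) and -0.23 (Adamtsl4), VSMC-like BDL gave -0.16 (Adamtsl4) and 0.00 (Adamtsl5), and VSMC-like CCl4 gave 0.13 (Adamts2), -0.15 (Adamts4) and 1.19 (Adamts15). With the Comp cluster, and the BDL portions that it brought in, FB-like BDL gave 0.71 (Adamts4), -0.39 (Adamts5), 0.87 (Adamts15), 0.97 (Adamtsl2) and 0.19 (Adamtsl5). With no plate term the values were 0.33 (Adamts4, FB-like BDL), 0.14 (Adamts5), -0.20 (Adamts15) and -0.09 (Adamtsl4) for FB-like CCl4, -0.60 (Adamtsl4, VSMC-like BDL), and 0.17 (Adamts1), 0.26 (Adamts2) and 1.65 (Adamts12) for VSMC-like CCl4. For VSMC-like CCl4, RLE and DESeq2 both gave 0.01 (Adamts2) and 0.02 (Adamts12), and no filter gave 0.01 (Adamts12).

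With each plate left out in turn, FB-like BDL ranged from -0.37 to 0.44 (Adamts2), -1.44 to 0.65 (Adamts4), -0.12 to 0.57 (Adamts5) and -0.01 to 2.94 (Adamts12). FB-like CCl4 ranged from -0.59 to 0.75 (Adamts4), -0.56 to 0.21 (Adamts5), -0.29 to 0.54 (Adamts10) and -0.30 to 0.38 (Adamtsl5). VSMC-like BDL ranged from -0.71 to 0.72 (Adamts5), -0.84 to 3.06 (Adamtsl2) and -0.04 to 0.16 (Adamtsl4). VSMC-like CCl4 ranged from -0.85 to 0.56 (Adamts1), -1.11 to 1.46 (Adamts2), -0.26 to 0.51 (Adamts4), -1.08 to 1.48 (Adamts12), -0.63 to 5.97 (Adamtsl2) and -0.57 to 0.13 (Adamtsl4).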
